A study of Mus musculus with 10 samples.

Results

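Photoreceptors carry their light-sensing machinery in an outer segment that is a modified primary cilium, joined to the cell body by a narrow connecting cilium. The genes described here are a list of 43 that build, gate or use that cilium, set with earlier results of these data known, and all 43 were found by symbol among the 19999 genes of the deposited count table. The libraries hold retinal RNA of BALB/c mice, an albino strain, with 5 from retina damaged by light and 5 from controls. Vehicle is part of every library name, and the design text names an agent, A74, with which no library used here was made. Light dose, time after exposure, sex and age are not stated in the labels. Whether each library is a separate animal is not stated either, so p-values here measure spread between libraries, which may be technical.

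Transport in the cilium runs along microtubules as intraflagellar transport (IFT), in which kinesin-2 carries IFT-B trains to the tip and dynein-2 carries IFT-A bound trains back. The BBSome, named for Bardet-Biedl syndrome, loads membrane proteins onto these trains. The transition zone, of which the connecting cilium is the photoreceptor form, gates what enters. Mutations in many of these genes cause retinal degeneration in people.

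Totals lay between 17900227 and 20337329 counts in light damage and between 14652535 and 20699236 counts in control. Light damage replicates 1 and 2 stood apart, with 17174 and 20414 counts of Xist, against 1 to 9 in the other 8 libraries, and with the highest summed level of lens markers. Lens markers summed to between 20.4 and 7103 CPM (counts relative to library size after TMM scaling, a trimmed mean of ratios between libraries) in light damage and to between 3.22 and 29.9 CPM in control. All 15 rod markers were present, at means of 532 CPM or more, as the retina label implies, and no marker of any of the 11 cell type lists that is in the table was at 0 in every library.

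Of the 43 genes, all of which passed the filter on low counts, 10 were lower in light-damaged retina and 0 higher in the quasi-likelihood test of edgeR, at an adjusted p (Benjamini-Hochberg over all genes) under 0.05. Over all 16852 genes tested, 7.85% were lower and 5.32% higher in the same test. With library totals alone as the scaling, 1147 genes of the table were higher and 912 lower, against 896 higher and 1323 lower with TMM. Before adjustment 16 of the 43 were lower and 0 higher at p under 0.05, against 16.3% lower and 14% higher of all genes tested. DESeq2 called 12 of the 43 lower, against 9.51% of all genes, and 0 higher. The lower genes were 6 of 8 genes of the connecting cilium and basal body, 2 of 4 of the photoreceptor axoneme, 2 of 7 BBSome subunits, and 0 of 16 IFT subunits and motors. Among those 16, 3 had an unadjusted p under 0.05 in edgeR's test, and DESeq2 called 1, Ift172. Fold changes below 0 on the log2 scale were found for 29 of the 43, against 49.7% of all genes tested. The median log2 fold change was -0.09 over the 43 and 0.00 over all genes tested. The count of 10 was 6 with light damage replicate 1 left out and 4 with light damage replicate 3 left out. It was 6 in each fit that left out control replicate 2, 4 or 5. In the same order, calls over all genes were 1163, 1127, 1811, 1806 and 1455, against 2219 with all libraries. In whole retina, fewer cells of a type and less RNA per cell cannot be told apart.

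**Figure D1:**
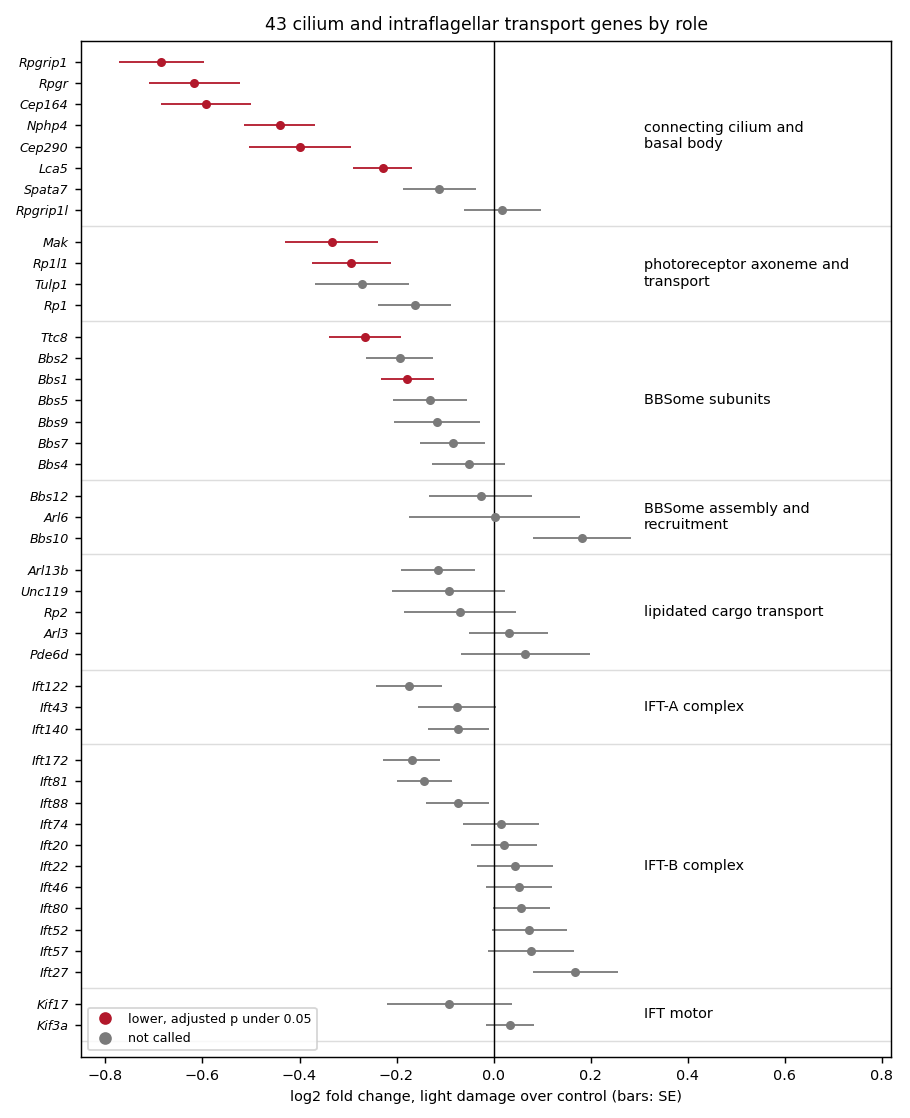
Log2 fold change of light damage over control for the 43 genes, grouped by role, with bars for the standard error from edgeR's fit on 5 libraries per group. The 10 genes at an adjusted p under 0.05 are red and all lie left of 0, from -0.68 for Rpgrip1 to -0.18 for Bbs1.

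The 4 lower genes with the lowest p were Rpgrip1, Rpgr, Cep164 and Nphp4, all of the connecting cilium and basal body group. Rpgrip1 (ENSMUSG00000057132) encodes the scaffold that anchors the RPGR protein in the connecting cilium. It had 533, 589, 446, 566 and 557 CPM in light damage replicates 1 to 5, against 706, 931, 863, 909 and 919 CPM in control replicates 1 to 5. Every light damage library lay below every control library, and the lowest control, replicate 1, stood apart from the other 4. Its log2 fold change was -0.68 (SE 0.09, edgeR adjusted p = 0.000519), which placed Rpgrip1 at rank 16 by p among all genes tested. Its annotated exons share 1057 bases with Supt16, a histone chaperone subunit gene on the opposite strand that was also lower, with a log2 fold change of -0.43 (SE 0.07). Strand marking is not stated in the labels, so it is not known whether reads in the shared stretch were counted for the right gene.

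Rpgr (ENSMUSG00000031174), on the X chromosome, encodes the partner that RPGRIP1 anchors, a regulator of traffic through the connecting cilium that is a common target of X-linked retinitis pigmentosa mutations. Its levels were 22.0, 23.4, 20.5, 21.8 and 30.7 CPM in light damage replicates 1 to 5, against 37.6, 38.1, 34.3, 35.3 and 36.0 CPM in control replicates 1 to 5. Light damage replicate 5 was nearest to the controls, and the groups did not overlap. The log2 fold change of Rpgr was -0.62 (SE 0.09, edgeR adjusted p = 0.00159). Srpx shares 208 exonic bases with Rpgr on the same strand and was lower too, by a log2 fold change of -0.78 (SE 0.19), at 935 counts summed over all libraries.

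Nphp4 (ENSMUSG00000039577), nephrocystin 4, is a transition zone protein that also binds RPGRIP1. It had 33.3, 33.0, 32.1, 29.7 and 38.3 CPM in light damage replicates 1 to 5, against 40.7, 48.1, 44.0, 46.9 and 46.3 CPM in control replicates 1 to 5. No light damage library reached the lowest control. The log2 fold change was -0.44 (SE 0.07, edgeR adjusted p = 0.00236).

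Cep164 (ENSMUSG00000043987) belongs to the distal appendages that dock the basal body at the membrane. Its levels were 172, 189.8, 135, 168 and 206 CPM in light damage replicates 1 to 5, against 243, 270.2, 244, 285 and 270.3 CPM in control replicates 1 to 5. Light damage replicate 3 was the lowest library, and the groups did not overlap. Cep164 had a log2 fold change of -0.59 (SE 0.09, edgeR adjusted p = 0.00207).

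These 4 genes kept their calls whichever of the 10 libraries was left out, and the highest adjusted p was 0.00287 for Rpgrip1, 0.00732 for Rpgr, 0.00872 for Cep164 and 0.00982 for Nphp4 in edgeR. Without light damage replicates 1 and 2 together, they were the only members called, against 1.55% of all genes called lower in that fit. Their log2 fold changes there were -0.72, -0.58, -0.63 and -0.44 for Rpgrip1, Rpgr, Cep164 and Nphp4, so they were about as large without the libraries high in Xist and lens markers.

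RFX factors bind promoters of many cilium genes and CRX those of photoreceptor genes, so the promoters of these 4 genes, which were lower together, were searched for an RFX core motif, GTTGCC, and a CRX site, TAATCC, on both strands. The sequences are those of RefSeq on GRCm38.p6, with 250 bases before and 50 after each listed start, 5′ to 3′ on the gene's strand. The windows with a match are shown, with the match in capitals.
Rpgrip1, chr14:52110653-52110952, plus strand: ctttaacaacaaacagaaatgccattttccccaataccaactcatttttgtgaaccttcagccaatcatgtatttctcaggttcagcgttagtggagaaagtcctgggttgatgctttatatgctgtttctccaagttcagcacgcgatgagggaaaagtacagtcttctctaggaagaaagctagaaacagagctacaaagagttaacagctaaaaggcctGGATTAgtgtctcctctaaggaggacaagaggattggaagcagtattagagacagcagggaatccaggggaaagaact
Cep164, chr9:45828614-45828913, minus strand: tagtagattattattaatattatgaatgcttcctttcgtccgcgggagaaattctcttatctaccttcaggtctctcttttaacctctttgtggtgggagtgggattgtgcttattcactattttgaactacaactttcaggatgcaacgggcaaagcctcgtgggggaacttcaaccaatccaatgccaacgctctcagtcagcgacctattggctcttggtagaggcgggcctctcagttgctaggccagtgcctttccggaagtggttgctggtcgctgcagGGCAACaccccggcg
Nphp4, chr4:152477892-152478191, plus strand: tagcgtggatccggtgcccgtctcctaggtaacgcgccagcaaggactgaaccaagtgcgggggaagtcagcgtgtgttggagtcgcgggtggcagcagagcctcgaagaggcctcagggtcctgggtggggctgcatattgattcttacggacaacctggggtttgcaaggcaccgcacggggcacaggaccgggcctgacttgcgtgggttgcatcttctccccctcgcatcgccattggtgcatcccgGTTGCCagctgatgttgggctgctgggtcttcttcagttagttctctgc
In Rpgrip1 the capitals mark the CRX site in reverse complement, GGATTA, whose first base lies 28 bases before the start. Cep164 holds the RFX motif in reverse complement, GGCAAC, and the third of the 3 starts listed for Nphp4 holds it as written, both in the stretch after the start. The other 2 windows of Nphp4 and both windows of Rpgr held neither set of letters. Windows were listed for 38 of the 43 genes. The RFX motif was in 16 of their 46 windows, or 34.8%, against 12.5% of all 32851 windows, and the CRX site in 4, or 8.70%, against 7.06%. By gene, the RFX motif was found for 4 of the 9 lower genes with a window and for 11 of the 29 others, and the CRX site for 3 of the 9 and 1 of the 29. A match is a description of letters and not a site shown to be bound.

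Cep290 and Lca5 were also lower, by less. Cep290 (ENSMUSG00000019971) encodes a large transition zone protein that links the microtubules to the membrane. It had 60.5, 83.8, 77.9, 74.0 and 99.1 CPM in light damage replicates 1 to 5, against 98.7, 114, 109, 96.4 and 103 CPM in control replicates 1 to 5. Light damage replicate 5 lay among the controls, and the other 4 lay below them all. The log2 fold change was -0.40 (SE 0.10, edgeR adjusted p = 0.0268). The call did not hold without light damage replicate 3 or 4 or control replicate 2, 3 or 5, with an adjusted p up to 0.0657. An antisense gene, 4930430F08Rik, shares 881 exonic bases with Cep290 and had a log2 fold change of -0.07 (SE 0.08).

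Lca5 (ENSMUSG00000032258) encodes lebercilin, a protein of the ciliary microtubules that binds IFT proteins. Its levels were 68.9, 71.8, 63.9, 75.4 and 73.0 CPM in light damage replicates 1 to 5, against 82.2, 86.3, 74.0, 88.0 and 83.2 CPM in control replicates 1 to 5. One pair of libraries overlapped, light damage replicate 4 and control replicate 3. Lca5 had a log2 fold change of -0.23 (SE 0.06, edgeR adjusted p = 0.0233) and lost its call without light damage replicate 1 or 3 or control replicate 4 or 5, with an adjusted p up to 0.0752.

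The other connecting cilium genes did not pass. Spata7, whose product also binds RPGRIP1, averaged 18.5 ± 1.18 CPM under light damage and 20.0 ± 1.36 CPM in control libraries (SD, n = 5 each), with a log2 fold change of -0.11 (SE 0.08). Rpgrip1l, a relative of Rpgrip1 found in the transition zone of many ciliated cell types, averaged 23.0 ± 2.13 CPM under light damage and 22.7 ± 1.58 CPM in control, a log2 fold change of 0.02 (SE 0.08).

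**Figure D2:**
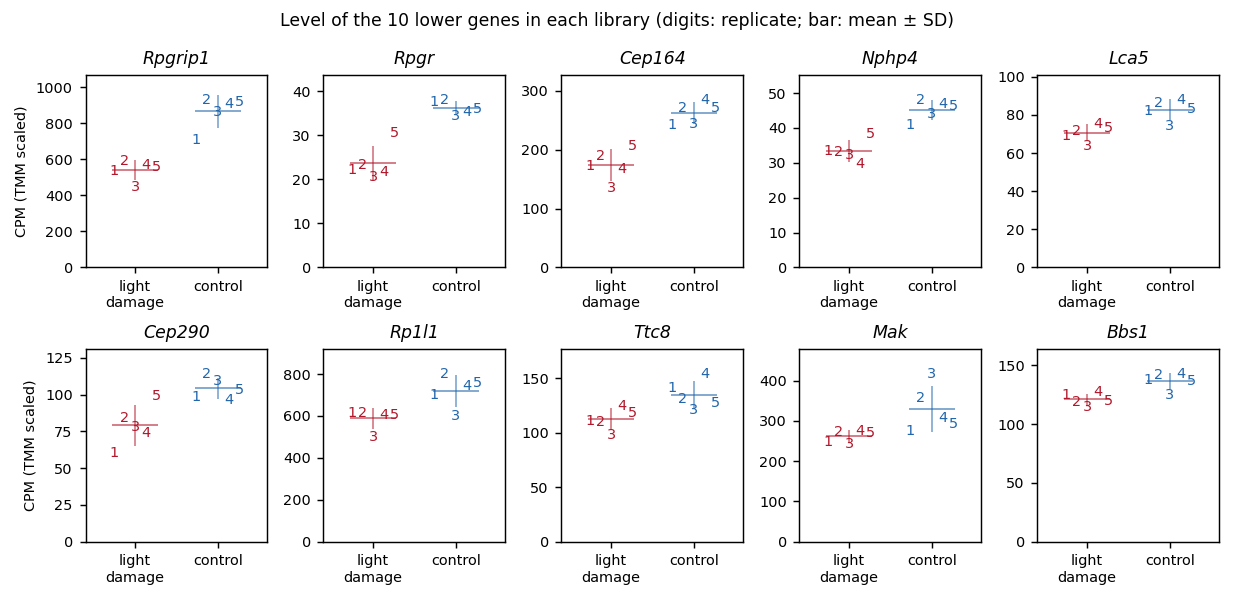
CPM of the 10 lower genes in each library, light damage left and control right, with the digit of the replicate at its value, a horizontal bar for the mean and a vertical bar for the SD of 5 libraries. Rpgrip1, Rpgr, Cep164, Nphp4 and Mak have no overlap between the groups, and light damage replicate 3 is the lowest library for 8 of the 10 genes.

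Genes of the outer segment axoneme and transport to it, which are active mainly in photoreceptors, all had fold changes below 0, and 2 of 4 were lower. Rp1l1 (ENSMUSG00000046049), a relative of the microtubule-binding protein RP1, had 616, 615, 499, 605 and 604 CPM in light damage replicates 1 to 5, against 702, 800.2, 599.5, 742 and 757 CPM in control replicates 1 to 5. Light damage replicate 3 was far below the rest of its group, and control replicate 3 lay among the light damage libraries. The log2 fold change was -0.29 (SE 0.08, edgeR adjusted p = 0.0272).

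Mak (ENSMUSG00000021363), a kinase that limits the length of the photoreceptor cilium in mice, had 246, 273, 244, 274 and 270.0 CPM in light damage replicates 1 to 5, against 276, 357, 416, 306 and 291 CPM in control replicates 1 to 5. The groups did not overlap, but control replicate 1 was within 2 CPM of the highest light damage library. Its log2 fold change was -0.33 (SE 0.10, edgeR adjusted p = 0.0355). Rp1l1 lost its call without light damage replicate 3 or control replicate 2, 4 or 5, with an adjusted p up to 0.0801. Mak lost its call without light damage replicate 1, 2, 3 or 4 or control replicate 2 or 3, with an adjusted p up to 0.0911.

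Tulp1 (ENSMUSG00000037446), needed to move rhodopsin to the outer segment, did not pass. It had 1292, 1199.9, 1061, 1285 and 1432 CPM in light damage replicates 1 to 5, against 1729, 1382, 1299, 1753 and 1404 CPM in control replicates 1 to 5. Of the light damage libraries 4 lay below every control, and control replicates 1 and 4 were well above the rest. The log2 fold change was -0.27 (SE 0.10, edgeR adjusted p = 0.0734, DESeq2 adjusted p = 0.0364). Rp1 averaged 1357 ± 90.3 CPM under light damage and 1518 ± 144 CPM in control libraries (SD, n = 5 each). Its groups did not overlap, although its log2 fold change of -0.16 (SE 0.08) did not pass (edgeR adjusted p = 0.159). Of the 43 genes, 6 had no overlap between groups, all lower in light damage, against 5.48% of all genes tested.

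The BBSome had 2 of 7 subunits lower, and all 7 fold changes were below 0. Ttc8 (ENSMUSG00000021013), also known as BBS8, had 111, 109, 97.6, 125 and 118 CPM in light damage replicates 1 to 5, against 141, 131, 121, 154 and 128 CPM in control replicates 1 to 5. Light damage replicate 4 overlapped control replicate 3, and the others lay below the controls. Ttc8 had a log2 fold change of -0.27 (SE 0.07, edgeR adjusted p = 0.0275).

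Bbs1 (ENSMUSG00000006464), the subunit that meets the GTPase ARL6 at the membrane, had 125, 119, 115, 127 and 119 CPM in light damage replicates 1 to 5, against 138, 142, 125, 143 and 137 CPM in control replicates 1 to 5. Again the overlap was between light damage replicate 4 and control replicate 3. Its log2 fold change was -0.18 (SE 0.05, edgeR adjusted p = 0.0400). Bbs1 kept its call in only 2 of the 10 fits with 1 library left out, those without light damage replicate 4 or control replicate 3, with an adjusted p up to 0.110. It also lost the call with no filter on low counts, at an edgeR adjusted p of 0.0666. Ttc8 lost its call without light damage replicate 1, 2 or 3 or control replicate 4, with an adjusted p up to 0.0788.

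Bbs7 (ENSMUSG00000037325), the subunit with the highest level per transcript length, had 161, 156, 137, 166 and 174 CPM in light damage replicates 1 to 5, against 172, 172, 151, 180.1 and 166 CPM in control replicates 1 to 5. The groups overlapped, and the log2 fold change was -0.08 (SE 0.07). Bbs2, Bbs4, Bbs5 and Bbs9 had log2 fold changes of -0.19, -0.05, -0.13 and -0.12 and did not pass.

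Genes that assemble or recruit the BBSome did not pass either. Arl6 (ENSMUSG00000022722), the GTPase that brings the BBSome to membranes, had 123, 142, 166, 149 and 140.0 CPM in light damage replicates 1 to 5, against 156, 138, 199, 132 and 94.2 CPM in control replicates 1 to 5. The controls spanned the whole light damage range, and the log2 fold change was 0.00 (SE 0.18). Bbs10 and Bbs12, chaperonin-like proteins of BBSome assembly, had log2 fold changes of 0.18 (SE 0.10) and -0.03 (SE 0.11).

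**Figure D3:**
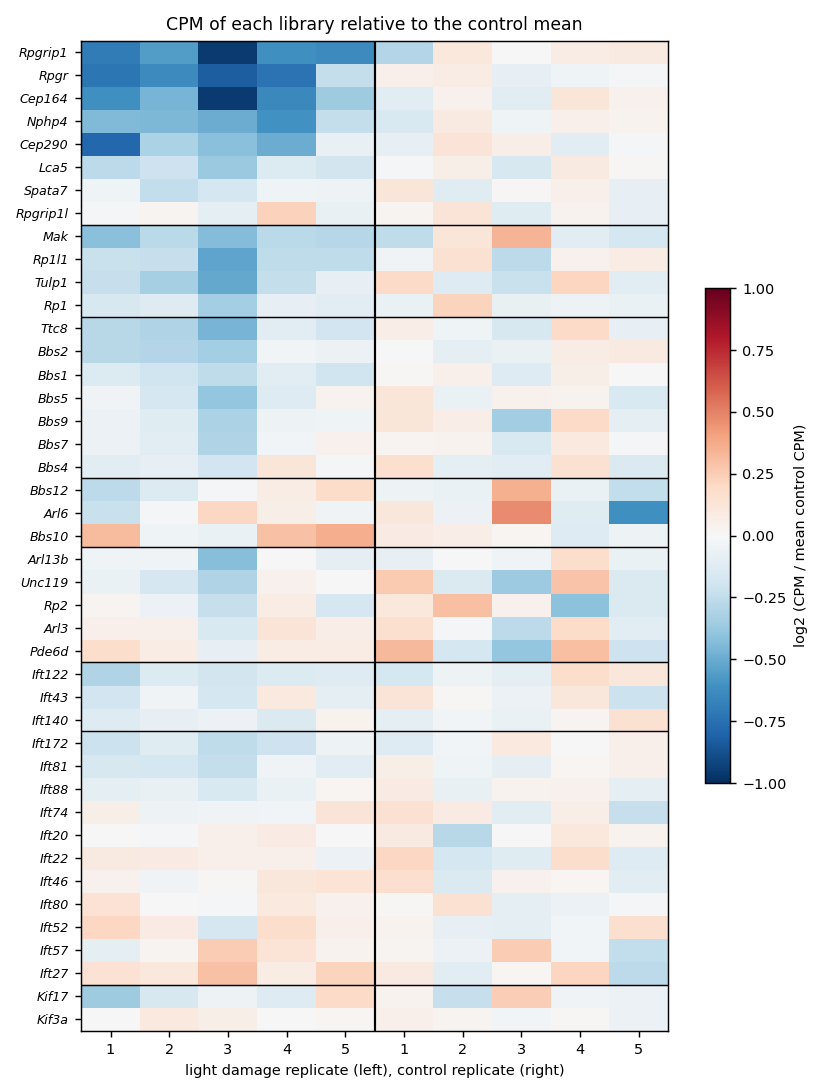
Heat map of the 43 genes in rows, grouped by role with black lines between roles, and the 10 libraries in columns, with light damage left. Colour is the log2 ratio of a library's CPM to the mean control CPM; the upper rows (Rpgrip1, Rpgr, Cep164, Nphp4) are blue in each light damage library, while in the IFT rows at the bottom blue and red occur in both groups.

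Carriers of lipid-modified outer segment proteins held some of the most abundant messages and none passed, by edgeR or DESeq2, and none had an unadjusted p under 0.05. Unc119 (ENSMUSG00000002058), which carries the acylated transducin alpha subunit, had 1963, 1828, 1664, 2113 and 2046 CPM in light damage replicates 1 to 5, against 2455, 1852, 1597, 2496 and 1850.1 CPM in control replicates 1 to 5. Control replicates 1 and 4 were high and replicate 3 was low, so that the light damage values lay within the control range. Its log2 fold change was -0.09 (SE 0.12). Pde6d, the carrier of prenylated proteins such as PDE6, had a log2 fold change of 0.07 (SE 0.13). Arl3, the GTPase that releases both kinds of cargo, had 0.03 (SE 0.08), its activator Arl13b had -0.11 (SE 0.08), and its inactivator Rp2, X-linked like Rpgr, had -0.07 (SE 0.12), each as a log2 fold change.

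None of the 14 IFT subunit genes passed in edgeR's test, in which 7.85% of all genes tested were lower and 5.32% higher. Among IFT subunits outside the 43, 2 of 7 IFT-B and 0 of 4 IFT-A genes were lower. Ift20 (ENSMUSG00000001105), an IFT-B subunit that also sits at the Golgi, had 52.6, 52.1, 54.7, 55.7 and 52.5 CPM in light damage replicates 1 to 5, against 56.2, 43.5, 52.8, 56.8 and 54.1 CPM in control replicates 1 to 5. Control replicate 2 was the lowest library and the groups overlapped, and the log2 fold change was 0.02 (SE 0.07). Over the 11 IFT-B genes, log2 fold changes ran from -0.17 to 0.17, with a median of 0.04. Ift172, which averaged 70.3 ± 4.13 CPM under light damage and 79.0 ± 4.65 CPM in control, had the lowest adjusted p of them (edgeR adjusted p = 0.0661). Ift81 averaged 60.9 ± 3.28 CPM under light damage and 67.2 ± 2.98 CPM in control, with an edgeR adjusted p of 0.0983. The others, Ift22, Ift27, Ift46, Ift52, Ift57, Ift74, Ift80 and Ift88, had log2 fold changes between -0.07 and 0.17.

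Of the retrograde IFT-A genes, Ift43 (ENSMUSG00000007867) had 24.3, 27.1, 24.5, 29.7 and 26.1 CPM in light damage replicates 1 to 5, against 30.3, 27.9, 26.6, 30.1 and 23.9 CPM in control replicates 1 to 5. The groups overlapped, and its log2 fold change was -0.08 (SE 0.08). Ift122 and Ift140 had -0.17 (SE 0.07) and -0.07 (SE 0.06) as log2 fold changes. Kif3a (ENSMUSG00000018395), a motor subunit of kinesin-2, had 81.2, 87.3, 84.7, 81.3 and 82.7 CPM in light damage replicates 1 to 5, against 84.2, 83.0, 79.7, 82.3 and 78.2 CPM in control replicates 1 to 5. Its log2 fold change was 0.03, and its SE of 0.05 was the smallest among the 43 genes. Kif17, a second kinesin-2 motor, was the scarcest member at 6.59 ± 0.926 CPM under light damage and 7.01 ± 0.846 CPM in control libraries (SD, n = 5 each).

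Scaled by transcript length, as TPM (counts divided by transcript length, with each library scaled to the same sum), levels of the 43 genes differed widely. Unc119 averaged 4061 ± 338 TPM in light damage and 4369.6 ± 575 TPM in control (SD, n = 5 each), followed by Tulp1 with 1666 ± 173 TPM under light damage and 2035 ± 152 TPM in control. Over all 10 libraries the next were Rp1 with a mean of 613 TPM, Arl3 with 607 TPM, Rp1l1 with 286 TPM, Pde6d with 272 TPM and Rpgrip1 with 262 TPM. The scarcest were Kif17, Rpgrip1l and Rp2, with 5.77, 9.51 and 9.74 TPM. Among the lower genes, Rp1l1 and Rpgrip1 had the highest levels and Rpgr and Nphp4 the lowest, with 23.1 and 22.9 TPM.

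Another 85 symbols for genes of the cilium were listed by structure, of which 81 are in the table and all 81 were tested. In light damage 22 were lower and 0 higher in edgeR's test, against 7.85% lower and 5.32% higher of all genes tested. Before adjustment 32 were lower and 3 higher at p under 0.05, against 16.3% and 14% of all genes tested. DESeq2 called 24 lower and 1 higher, against 1602 lower (9.51%) and 1309 higher of all 16852 genes tested. The count of 22 was 14 with light damage replicate 1 or 4 left out and 10 with light damage replicate 3 left out. It was 14 with control replicate 5 left out and 14 with library totals alone as the scaling. With light damage replicates 1 and 2 both left out it was 6. In the same order, calls over all genes were 1163, 1609, 1127, 1455, 2059 and 403, against 2219 with all libraries and TMM. In the last of these fits, 1.55% of all genes were lower. The 22 lower in the main fit included 6 of 18 transition zone genes, 5 of 17 of the basal body, appendages and rootlet, and 5 of 8 of the Usher complex. The others were 2 of 8 of the axoneme and tubulin modification and 2 of 7 further IFT-B subunits. To these came 1 of 8 dynein-2 and kinesin-2 motor genes and 1 of 5 further BBSome factors. Of 4 further IFT-A genes and 6 genes of lipidated cargo transport none passed in edgeR's test. Of these 10, 1 had an unadjusted p under 0.05. It was Arl2, which was higher in light damage, with a log2 fold change of 0.16 (SE 0.06).

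Cep250, a centrosome linker protein, averaged 129.7 ± 17.3 CPM under light damage and 199 ± 10.8 CPM in control libraries (SD, n = 5 each), with a log2 fold change of -0.62 (SE 0.08, edgeR adjusted p = 0.000491). In the transition zone, Cc2d2a averaged 71.9 ± 5.96 CPM under light damage and 104 ± 7.74 CPM in control, a log2 fold change of -0.53 (SE 0.07, edgeR adjusted p = 0.000579). Tctn1 and Fam161a of the same list fell by 0.39 and 0.39 on the log2 scale. Of the Usher genes, Pcdh15 fell by 0.48 and the scaffold Whrn by 0.41 on the log2 scale. Ick, a kinase related to Mak, fell by 0.36, and Agbl5, an enzyme that removes glutamate from tubulin, fell by 0.31 on the log2 scale. The appendage genes Fbf1 and Cep89 fell by 0.26 and 0.24, and Ttc26, the IFT-B subunit IFT56, fell by 0.42 on the log2 scale. None of these 11 genes, which are among the 12 with the lowest p, had an overlap between the groups.

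**Figure D4:**
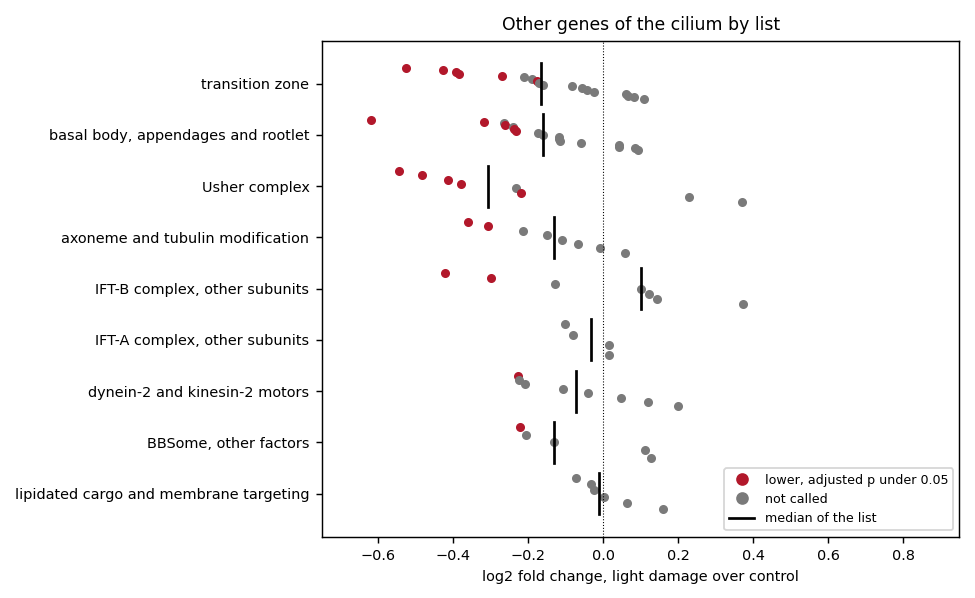
Log2 fold change of light damage over control for 81 further cilium genes by list, 1 point per gene, red where the adjusted p was under 0.05 in edgeR's test, with a black line at the list's median. All 22 red points lie left of 0, and the Usher list has the lowest median, -0.31.

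After removal of trends with GC content and with transcript length from each library, Cep290, Rp1l1, Mak and Bbs1 lost their calls, with adjusted p of 0.0946, 0.0602, 0.0630 and 0.0703 in edgeR. Their log2 fold changes there were -0.26, -0.24, -0.26 and -0.15, against -0.40, -0.29, -0.33 and -0.18 before. Bbs2 and Tulp1 gained calls, with log2 fold changes of -0.21 and -0.31 and adjusted p of 0.0374 and 0.0234 in edgeR, so that 8 of the 43 were lower, against 7.68% of all genes. Under scaling by library totals in place of TMM, Cep290, Mak and Bbs1 lost theirs, with adjusted p of 0.0531, 0.0915 and 0.0576 in edgeR and log2 fold changes of -0.37, -0.31 and -0.15. The other 7 stayed lower, against 5.41% of all genes. RNA levels of photoreceptor markers were taken beside these genes, and photoreceptors themselves were not counted. Of the 15 rod markers 1 was called, Sag, which was higher. Fold changes were below 0 for 12 of the 15, against 49.7% of all genes tested. The median log2 fold change of the 15 was -0.12. Their summed level lay between 70214 and 98056 CPM under light damage and between 74840 and 122160.0 CPM in control, so the groups overlapped. Of the 9 cone markers 7 had fold changes below 0, with a median log2 fold change of -0.08, and 1 was called. It was Arr3, cone arrestin, which averaged 149.7 ± 17.7 CPM under light damage and 242 ± 65.8 CPM in control, without overlap, at a log2 fold change of -0.69 (SE 0.19, edgeR adjusted p = 0.0407). Cone markers summed to between 1189.5 and 1416 CPM under light damage and between 1146 and 1559 CPM in control. With the mean rod marker level of each library as a covariate, all 10 lower genes kept their calls and 12 of the 43 were lower, against 9.76% of all genes. When every library was instead scaled to equal rod marker levels, Rpgrip1 alone kept its call (edgeR adjusted p = 0.0198), with a log2 fold change of -0.61. Rpgr, Cep164 and Nphp4 had -0.53, -0.51 and -0.35 as log2 fold changes on that scale. The median log2 fold change there was 0.00 over the 43 and 0.09 over all genes tested. With TMM these medians were -0.09 and 0.00. The total of genes called over the whole table was 57 on the rod marker scale, against 2219 with TMM. None of the 81 further cilium genes passed on that scale in edgeR's test, and 10 had an unadjusted p under 0.05, against 14.4% of all genes tested. Both fits were chosen after the data were seen. Müller glia markers summed to between 4431 and 6405 CPM under light damage and between 3167 and 4879 CPM in control, with 3 of 8 higher. Bipolar and amacrine markers had 3 of 9 and 2 of 7 higher. Microglia markers summed to between 60.3 and 128 CPM under light damage and between 43.9 and 63.6 CPM in control, with 1 of 7 higher. Of all genes tested, 5.32% were higher. Fold changes were above 0 for all 8 Müller glia, 8 of 9 bipolar, 6 of 7 amacrine and all 7 microglia markers. Their median log2 fold changes were 0.34, 0.17, 0.17 and 0.65. The part of these other cells in the lower cilium genes was not tested. Markers of motile cilia, of which 6 are in the table, summed to between 48.5 and 58.7 CPM under light damage and between 56.7 and 67.4 CPM in control, and 1, Dnah9, was lower.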

How the data were processed

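Retinal RNA of 5 light damage and 5 control libraries was analysed from 1 deposited table of whole-number counts per gene, grouped by the sample titles. Per the submitters' processing notes, GRCm39 and the tools RSEM 1.3.1, DESeq2 1.4.5 and Bowtie2 were used by the authors, in steps that are not named. Whether the deposited counts are rounded estimates is not stated. Symbols, exons and the length and GC content of the longest transcript came from GENCODE M21 (GRCm38), and 19892 identifiers matched.

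In R 4.3.3, edgeR 4.0.16 kept 16852 genes by filterByExpr, scaled them by TMM and compared groups by the robust quasi-likelihood test, adjusted over all genes tested. CPM values are TMM scaled. TPM is counts per transcript length, scaled per library without TMM. Alternatives used DESeq2 1.42.0, limma 3.58.1, other scalings and filters, the replicate number as a block, removal of GC and length trends, and fits without each library. No 2 libraries agreed within sampling noise. Members, roles and lists were chosen with earlier results of these data known. Values per library are given for the called members and for the member of each role with the highest TPM, and of the 12 further cilium genes with the lowest p all but 1, which is not reported here, are named. Windows were searched for the 4 called members with the lowest p. Figures used matplotlib 3.10.9.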

Additional observations from a re-analysis of the deposited data

Results flagged for a closer look

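Of 34 groups of 5 values looked at, those of the 17 genes with a value given per library, 2 held a library far from its group; chance gives about 1 in 20 such groups. Rpgr had 30.7 CPM in light damage replicate 5, against 20.5 to 23.4 CPM in the other 4 light damage libraries, and without that library its log2 fold change was -0.73. Rp1l1 had 499 CPM in light damage replicate 3, against 604 to 616 CPM in the other 4, and without that library its log2 fold change was -0.24 and its call was lost (edgeR adjusted p = 0.0801).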

How the results depend on the processing

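No fold change turned round together with a call in any of the 23 alternatives run for the 43 cilium genes. Of the 989 values this gave, 918 kept their side of the threshold, 54 lost a call and 17 gained one. Leaving out each library in turn gave between 1127 and 2991 called genes, against 2219 with all libraries, between 4 and 12 cilium genes, against 10, and between 10 and 21 further cilium genes, against 22; none of the 43 was higher in any of these fits. Without light damage replicates 1 and 2 together the counts were 403, 4 and 6. Library totals alone gave 14 further cilium genes and, over all genes, 1147 higher and 912 lower, against 896 and 1323 with TMM. Scaling to rod markers, chosen after the data were seen, gave 57, 1 and 0, with 10 of the 81 further cilium genes, against 14.4% of all genes, at an unadjusted p under 0.05 by edgeR; it moved the median log2 fold change of all genes to 0.09, and Bbs1 to -0.08. With the replicate number as a block, 14 cilium genes, 26 further cilium genes and 3285 genes in all were called. The numbers are not shown to pair the libraries, since deviations from the group means correlated between 0.05 and 0.32. Except where a setting itself removes libraries, the cause was not tested.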
